A study of Mus musculus with 6 samples.

Results

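The genes described here encode 10 chaperones and co-chaperones of the lumen and membrane of the endoplasmic reticulum (ER): Hspa5, Hsp90b1, Hyou1, Sdf2l1, Dnajb11, Dnajb9, Dnajc3, Calr, Canx and Manf. They were taken by symbol from a table of 22298 genes, and each of the 10 symbols matched a single gene. The table holds 6 RNA-seq samples of MIN6, a single mouse insulinoma line that carries large T antigen under an insulin promoter: 3 controls and 3 samples labelled chronic epinephrine. In the study's scheme, cells received 100 nM epinephrine for 3 days and were then left without it for 2 days, and the day on which RNA was taken for sequencing is not named. The study's methods speak of biological replicates and independent samples in general, but no label says whether the samples of a group came from separate cultures. The p-values given here measure the spread between these samples, part of which may be technical. No allele or other agent is named in the labels, and all 6 samples are of the same line.

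The ER is where secreted proteins, proinsulin among them, enter the secretory pathway, fold and form disulfide bonds. BiP, the product of Hspa5, binds unfolded chains and releases them in a cycle of ATP hydrolysis, which J-domain proteins start and nucleotide exchange factors complete. GRP94 takes over some of these clients, and the lectins calnexin and calreticulin hold glycoproteins until they are folded. In cells with more unfolded protein in the ER, the sensors ATF6, IRE1 and PERK act on transcription, and many of these chaperone genes are known targets of the factors they release.

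The known ATF6 target sequence, the ER stress response element (ERSE), is CCAAT, then 9 bases, then CCACG, and its second form (ERSE-II) is ATTGGNCCACG. These and the other motifs named here were searched on both strands of the RefSeq promoter windows of build GRCm38.p6, which run from 250 bases before to 50 bases after a gene's start. A window was matched by symbol for 8 of the 10 genes, all but Hyou1 and Manf. An exact ERSE lay in 5 of the 8 windows and in 39 of all 32851 windows (0.119%). The elements are shown because the genes that hold them are described together below. Each is printed 5′ to 3′ on the strand of its gene, with the element in capitals, and where it lies in an annotated exon only the nearest bases are given.
Hspa5, chr2:34772020-34772048, plus strand: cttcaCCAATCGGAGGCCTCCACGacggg
Hsp90b1, chr10:86705598-86705694, minus strand: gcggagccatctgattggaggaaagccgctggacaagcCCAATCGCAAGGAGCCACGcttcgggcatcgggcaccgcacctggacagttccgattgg
Hsp90b1, chr10:86705510-86705591, minus strand: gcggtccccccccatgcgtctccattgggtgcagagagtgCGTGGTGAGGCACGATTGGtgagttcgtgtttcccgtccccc
Dnajc3, chr14:118937787-118937885, plus strand: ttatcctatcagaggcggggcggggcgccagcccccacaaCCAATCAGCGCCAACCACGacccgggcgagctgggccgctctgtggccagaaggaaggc
Calr, chr8:84847035-84847133, minus strand: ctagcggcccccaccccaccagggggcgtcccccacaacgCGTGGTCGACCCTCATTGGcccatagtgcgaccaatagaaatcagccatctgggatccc
Canx, chr11:50325760-50325858, minus strand: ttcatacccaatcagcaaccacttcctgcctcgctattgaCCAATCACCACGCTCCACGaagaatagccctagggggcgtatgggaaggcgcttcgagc
Dnajb11 (ERSE-II), chr16:22857843-22857871, plus strand: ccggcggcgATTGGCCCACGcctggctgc

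Distances are from the RefSeq start, which is not always the start of the gene position given below, taken from GENCODE. The ERSE began 65 bases before the start of Hspa5, 105 before that of Dnajc3 and 145 before that of Canx, on the strand of the gene. In Calr it began 162 bases before the start on the opposite strand. Hsp90b1 held 2 elements, 212 bases before the start on its own strand and 107 before it on the opposite strand. Dnajb11 held the ERSE-II, from base 8 after its start, a form found in 12 of all windows (0.0365%). Sdf2l1 and Dnajb9 held neither form. The window of Dnajb9 lies within its GENCODE gene position, so no base before its GENCODE start was searched. With 1 mismatch allowed among the fixed letters, the ERSE was still found in 5 of the 8 windows and in 1.5% of all windows. CCAAT alone and CCACG alone, the letters that make up the ERSE, were each in 8 of the 8 windows and in 37.4% and 32.8% of all windows. The motif TGACGTGG, known as the unfolded protein response element, and the amino acid response motif TTGCATCA were in none of the 8 (0.676% and 0.895% of all windows). A match describes these letters in the window and is not a measured binding site.

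**Figure D1:**
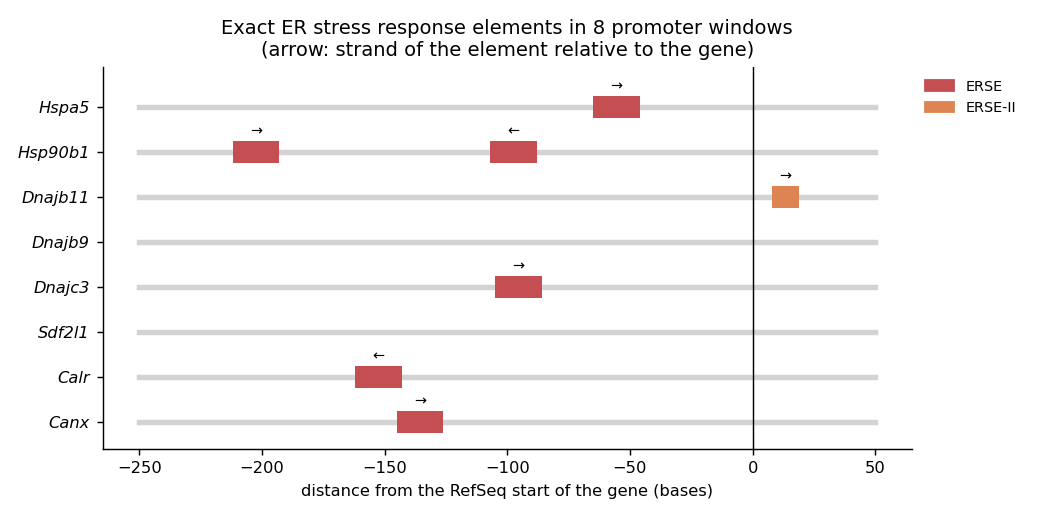
Positions of exact ERSE (red) and ERSE-II (orange) matches in the promoter windows of 8 genes, by distance from the RefSeq start in bases, with the strand relative to the gene as an arrow. Hsp90b1 has 2 elements, Hspa5, Dnajc3, Calr and Canx 1 each, Dnajb11 the ERSE-II past its start, and Dnajb9 and Sdf2l1 none.

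Total expected counts were 15017065 to 18127171 per sample, and the 10 genes had 622 to 35898 counts in a sample. Of the control samples, control 1 stood apart. Across genes, which are no independent replicates, its log2 CPM (counts scaled to a common library size) correlated with those of controls 2 and 3 at r = 0.979 and 0.978, against 0.993 for controls 2 and 3 and 0.992 to 0.993 within the epinephrine group. For the 10 genes the calls, fold changes and ratios below are therefore given also without control 1, as are the counts and medians of the lists. As a check of the cell type, all 13 markers of beta cells passed the filter on low counts. Ins1, Slc2a2 and Ucn3 were lower by edgeR (log2 fold changes of -0.50, -0.76 and -0.74), beside 0.612% of all genes tested, and the other 10 did not pass. A hepatocyte marker list of 15 genes summed to 21.7, 103 and 238 CPM in controls 1, 2 and 3 and to 17.7 to 19.7 CPM in the epinephrine samples, with Alb at 0.194, 33.9 and 82.3 CPM in the controls and 0.297 to 0.448 CPM after epinephrine. Control 1 lacks this signal, so the results without control 1 rest on controls 2 and 3, which carry it. The TMM-normalised CPM of all 10 chaperone genes were higher in each epinephrine sample than in control 1. In FPKM this did not hold for Hyou1, with 131.6 in control 1 and 128.6 in the lowest epinephrine sample. Against control 1 alone the log2 fold change of Hyou1 was 0.10. The part of the hepatocyte transcripts in the results was not tested. The 7 fibroblast markers summed to 23.6, 1.66 and 8.57 CPM in controls 1, 2 and 3 and to 1.85 to 19.5 CPM after epinephrine, and none of the 3 that were tested passed. Col1a1, the highest of them, was at 0.514 to 4.47 CPM in the controls and 0.198 to 15.6 CPM after epinephrine, and control 1 had the highest sum. The 8 leukocyte markers summed to 1.14 to 3.17 and to 3.14 to 4.33 CPM, and of these only Cd68 was higher (0.343 to 0.712 and 2.13 to 3.38 CPM, edgeR FDR 0.00906), while the other 7 were under 1 CPM on average. Of 12 exocrine pancreas markers, 7 were at 0 in every sample. Gcg, the highest of 8 markers of other islet cells, was at 175 to 212 CPM in the controls and 377 to 409 CPM after epinephrine. In bulk RNA, fewer cells of a type and less RNA per cell cannot be told apart.

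In TMM-normalised CPM, all 10 chaperone genes were higher in every epinephrine sample than in every control sample. Groups separated in this way, with epinephrine higher, in 1829 of the 12747 genes tested (14.3%). With scaling by library size only, and in FPKM, the groups separated for 9 of the 10, and the share of all genes was not counted there. Tested over the whole table by edgeR's quasi-likelihood test with Benjamini-Hochberg adjustment, 7 of the 10 were higher at an FDR under 0.05, against 257 of 12747 genes (2.02%): Hspa5, Hsp90b1, Sdf2l1, Dnajb11, Dnajb9, Dnajc3 and Manf. None of the 10 was lower at this FDR, as 78 genes were (0.612%), or at an unadjusted p under 0.05, as 1008 genes were (7.91%), and the Wald test of DESeq2 also called 0 of the 10 lower. The median log2 fold change of the 10 genes was 0.59, and 0.60 without control 1, and that of all tested genes was 0.00 in both. Sdf2l1 alone passed a threshold of 2-fold as well, which 81 genes (0.635%) did. An exact two-sided permutation test on each gene's CPM gave p = 0.1 for each of the 10, the smallest p that 3 samples against 3 allow.

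**Figure D2:**
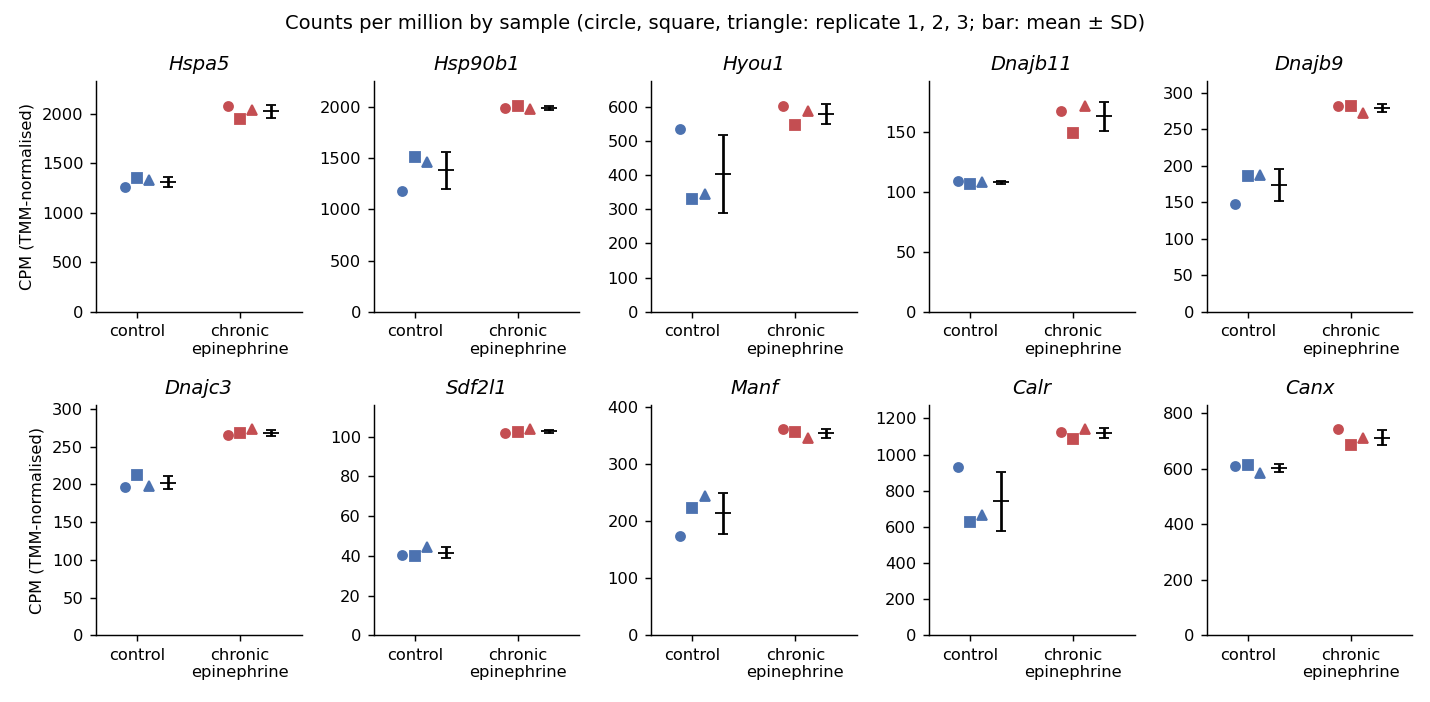
TMM-normalised CPM (vertical axes from 0) of the 10 genes in each control (blue) and chronic epinephrine (red) sample, with mean ± SD of 3 samples beside them and replicates 1, 2 and 3 as circle, square and triangle. Every red point lies above every blue one in each panel, and control 1 lies apart from the other controls in Hyou1 and Calr (higher) and in Hsp90b1, Dnajb9 and Manf (lower).

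Hspa5 (ENSMUSG00000026864, GRCm38 chr2:34771970-34777547, plus strand) encodes BiP, the Hsp70 of the ER lumen to which most of the other genes are tied. It had 1257, 1346 and 1332 CPM in controls 1, 2 and 3 and 2079.7, 1947 and 2041 CPM in the epinephrine samples. The gap between the groups was larger than the spread within either, and control 1 was close to the other controls. The log2 fold change was 0.62 (SE 0.08, 95% confidence interval 0.44 to 0.81, edgeR FDR 0.0074), and it was 0.59 without control 1 (FDR 2.73e-10, over all alternatives 2.59e-14 to 0.0778). Hspa5 belongs to the genes with an ERSE, 65 bases before its RefSeq start. The element, at 34772025 to 34772043, lies after the GENCODE start given above and so within that gene position.

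Hyou1 (ENSMUSG00000032115, chr9:44379490-44392369, plus strand) encodes ORP150, also called GRP170, an Hsp110-like protein that exchanges nucleotide on BiP. Its level was 535, 330.4 and 345 CPM in the controls and 603, 548 and 588 CPM after epinephrine. Control 1 was far above the other controls and close to the lowest epinephrine sample. With the log2 fold change at 0.52 (SE 0.18, interval 0.12 to 0.92), Hyou1 did not pass the test over the table (edgeR FDR 0.179). Without control 1 it was 0.78 (FDR 8.34e-12, over all alternatives 8.34e-12 to 0.478), and against control 1 alone 0.10 (FDR 0.166), so the size of this difference rests on which controls are used. In the deposited FPKM values the groups overlapped, with control 1 at 131.6 and the lowest epinephrine sample at 128.6 FPKM.

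Hsp90b1 (ENSMUSG00000020048, chr10:86690209-86705509, minus strand) encodes GRP94, the Hsp90 of the ER. It was measured at 1176, 1510.1 and 1458 CPM in the controls and at 1992, 2012 and 1975 CPM after epinephrine. The SD of the epinephrine samples was 18.2 CPM and that of the controls 179.6 CPM, with control 1 the lowest sample. The log2 fold change of 0.53 (SE 0.11, interval 0.28 to 0.77) had an edgeR FDR of 0.0425, and without control 1 it was 0.43 (FDR 7.88e-08, over all alternatives 2.65e-12 to 0.226). Of its exonic 50-base windows, 9.75% are shared with other annotated genes, mostly 1810014B01Rik on the other strand, and whether counting used strand is not given in the sources used here, so a small share of its counts is uncertain.

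The J-domain proteins start ATP hydrolysis on BiP. Dnajb11 (ENSMUSG00000004460, chr16:22857845-22879634, plus strand) encodes ERdj3, which binds unfolded clients directly and works together with the product of Sdf2l1. Its level was 109, 106 and 108 CPM in the controls and 167, 149 and 172 CPM after epinephrine. Here all 3 controls, control 1 included, were within a few CPM of each other, and the spread was mainly among the epinephrine samples. Dnajb11 had a log2 fold change of 0.60 (SE 0.09, interval 0.40 to 0.79, edgeR FDR 0.0107), and 0.60 also without control 1 (FDR 1.26e-08, over all alternatives 1.26e-08 to 0.104).

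Dnajb9 (ENSMUSG00000014905, chr12:44205559-44210326, minus strand) encodes ERdj4, which binds the lumenal part of IRE1 and brings BiP to it. It rose from 148, 187 and 187 CPM in the controls to 282, 282.5 and 273 CPM after epinephrine. The epinephrine samples were nearly equal and control 1 was the lowest sample. Its log2 fold change was 0.68 (SE 0.11, interval 0.44 to 0.92, edgeR FDR 0.0141), and without control 1 it was 0.58 (FDR 1.27e-09, over all alternatives 2.41e-13 to 0.118). A pseudogene, Gm6568, shares 5.5% of its 50-base windows.

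Dnajc3 (ENSMUSG00000022136, chr14:118937976-118981697, plus strand) encodes p58IPK, a J-domain co-chaperone whose loss in mice and people is known to cause diabetes. The controls had 197, 212 and 198 CPM and the epinephrine samples 265, 268 and 273 CPM. Both groups were tight, and control 1 was level with control 3. Dnajc3 had a log2 fold change of 0.41 (SE 0.08, interval 0.23 to 0.59, edgeR FDR 0.0342), the smallest of the genes that passed, and without control 1 it was 0.39 (FDR 1.80e-06, over all alternatives 4.29e-07 to 0.222).

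Sdf2l1 (ENSMUSG00000022769, chr16:17130138-17132383, minus strand) encodes a small ER protein with MIR domains that holds ERdj3 together with BiP and clients. Its level was 40.3, 39.8 and 44.7 CPM in the controls and 102, 102 and 104 CPM after epinephrine. The SDs were 2.68 and 0.902 CPM, so that the groups were far apart for their spread, and control 1 lay among the controls. The log2 fold change of 1.30 (SE 0.08, interval 1.11 to 1.49, edgeR FDR 0.0004) is 2.47-fold, and without control 1 it was 1.28 (FDR 3.10e-14, over all alternatives 8.95e-39 to 0.00957). Sdf2l1 had the highest fold change of the 10, and its window holds neither form of the ERSE.

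Manf (ENSMUSG00000032575, chr9:106838312-106891979, minus strand) encodes a secreted factor of the ER that binds BiP and stabilises its complexes with clients. It was at 174, 224 and 244 CPM in the controls and at 361, 356 and 346 CPM after epinephrine. Control 1 was the lowest sample. Its log2 fold change was 0.73 (SE 0.13, interval 0.44 to 1.02, edgeR FDR 0.0219), and without control 1 it was 0.60 (FDR 1.18e-09, over all alternatives 1.24e-14 to 0.159). Exons of Dcaf1 and 4930524O07Rik on the other strand overlap those of Manf, and 6.17% of its 50-base windows are shared.

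The lectins calreticulin, in the lumen, and calnexin, in the membrane, bind glycoproteins with a single terminal glucose. Calr (ENSMUSG00000003814, chr8:84841850-84846934, minus strand) had 929.8, 625 and 667 CPM in the controls and 1127, 1085 and 1139 CPM after epinephrine. As in Hyou1, control 1 was far above the other controls. The log2 fold change of 0.59 (SE 0.15, interval 0.26 to 0.93) did not pass (edgeR FDR 0.0798), while without control 1 it was 0.79 (FDR 2.94e-12, over all alternatives 2.94e-12 to 0.326) and against control 1 alone 0.25 (FDR 0.00053).

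Canx (ENSMUSG00000020368, chr11:50293961-50325673, minus strand) had 611, 614 and 586 CPM in the controls and 741, 684 and 711 CPM after epinephrine. The groups were tight and separate, and control 1 lay among the controls, but the fold change was the smallest of the 10. Canx had a log2 fold change of 0.24 (SE 0.08, interval 0.06 to 0.42, edgeR FDR 0.174), and it passed without control 1 (0.25, FDR 0.0005, over all alternatives 0.0005 to 0.529). Calr and Canx both hold an ERSE.

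**Figure D3:**
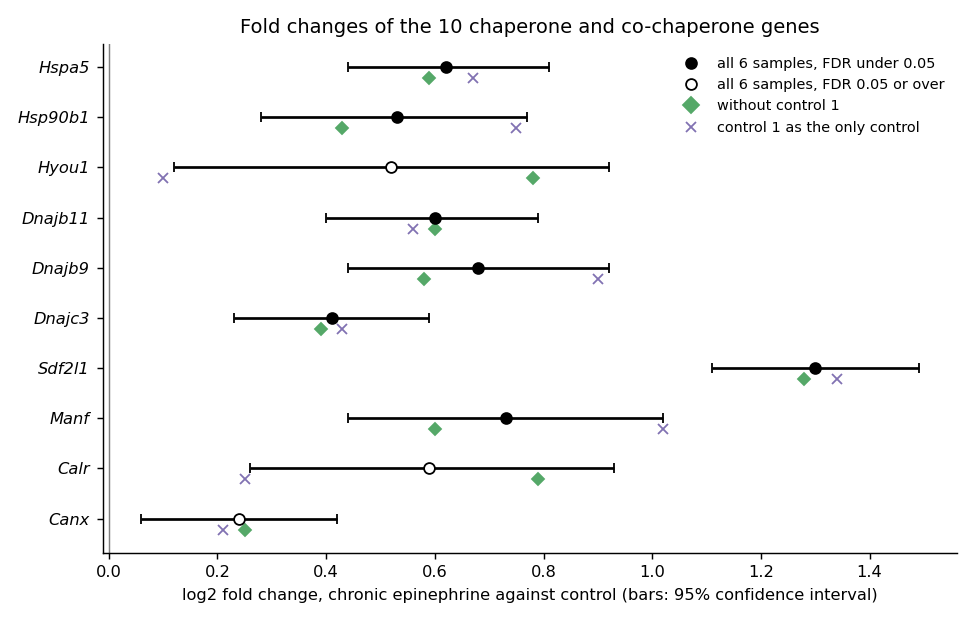
Log2 fold change of each gene from edgeR with its 95% confidence interval over all 6 samples (circles, filled at an FDR under 0.05), without control 1 (green diamonds) and with control 1 as the only control (purple crosses). Sdf2l1 lies at 1.30 and the other 9 between 0.24 and 0.73, and the diamonds and crosses lie farthest apart in Hyou1 (0.78 and 0.10) and Calr (0.79 and 0.25).

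The number of genes called depended on the samples. Without control 1, all 10 passed as higher, where 1572 of 12966 genes (12.1%) did. With control 1 as the only control, a setting chosen after seeing the data in which that sample is assumed to vary like the epinephrine group, 9 passed, all but Hyou1, against 23.7% of the genes tested. Without control 2, Hspa5 and Sdf2l1 passed (0.683% of genes), and without control 3, Hspa5, Sdf2l1, Dnajb11, Dnajb9 and Manf (1.17%). Without epinephrine 1, 2 or 3, Sdf2l1 was the only one of the 10 that passed each time, when 0.341%, 0.357% and 0.555% of the genes tested did. Over the 6 fits that omit 1 sample each, the log2 fold change was 0.59 to 0.65 for Hspa5 and 1.27 to 1.36 for Sdf2l1, with a highest FDR of 0.0778 and 0.00957. It ranged more widely for Hyou1 (0.39 to 0.78), Calr (0.48 to 0.79) and Manf (0.60 to 0.83). With the Wald test of DESeq2, 9 of the 10 were higher, all but Hyou1 (adjusted p = 0.0917), against 447 of 14047 genes (3.18%).

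Together the 10 genes took 0.533%, 0.521% and 0.514% of all counts in the controls and 0.768%, 0.732% and 0.755% in the epinephrine samples. Control 1, which differs from the other controls in single genes, did not stand out in this sum, since Hyou1 and Calr were higher there and Hsp90b1, Dnajb9 and Manf lower. The mean share was 0.523% ± 0.00918 (SD, n = 3) in the controls and 0.752% ± 0.0183 after epinephrine, and it was higher in 3 of 3 epinephrine samples than in any control (exact permutation p = 0.1, the smallest possible).

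Levels of different genes were compared in the deposited FPKM, which are scaled to transcript length. In the controls, Hsp90b1 (493 ± 56.9 FPKM, SD, n = 3) and Hspa5 (486 ± 9.21) were the highest, and their ranges overlapped. Calr followed at 343 ± 82.7 FPKM and overlapped Hsp90b1 through control 1. Manf (175 ± 26.2) and Canx (160.5 ± 6.14) did not differ beyond their spread. Below them came Hyou1 (98.1 ± 29.3), Dnajb9 (71.2 ± 8.04) and Dnajb11 (56.9 ± 2), whose ranges were separate. Dnajc3 (39.7 ± 1.53) and Sdf2l1 (37.8 ± 2.09) were the lowest and overlapped.

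After epinephrine the order of the FPKM levels was Hspa5 (739 ± 30.9), Hsp90b1 (698.5 ± 4.66), Calr (506 ± 15), Manf (287 ± 7.59), Canx (186 ± 8.48), Hyou1 (138 ± 8.13), Dnajb9 (113 ± 2.85), Sdf2l1 (91.7 ± 0.885), Dnajb11 (83.9 ± 6.6) and Dnajc3 (51.7 ± 0.777). The ranges of neighbours in this order did not overlap. Sdf2l1, whose mean in the controls was the lowest of the 10, was above both Dnajc3 and its partner Dnajb11 in each epinephrine sample. Its share of the summed FPKM of the 10 was 1.85% to 2.06% in the controls and 3.09% to 3.23% after epinephrine, while that of Canx was 7.89% to 8.35% and 6.3% to 6.57%.

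Whether the genes moved in step with BiP was described by the log2 ratio of each gene's CPM to that of Hspa5 in the same sample. The ratio of Sdf2l1 to Hspa5 was -4.96, -5.08 and -4.90 in the controls and -4.35, -4.25 and -4.30 after epinephrine, a difference of 0.68. Ratios of Dnajc3 and Canx to Hspa5 went the other way, by -0.22 and -0.39, without overlap of the groups. For these 3 genes the difference had the same direction against controls 2 and 3 (0.69, -0.21 and -0.35) and against control 1 alone (0.66, -0.24 and -0.46).

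For the other 6, the groups overlapped in their ratio to Hspa5. The differences were -0.03 for Dnajb11 (SDs 0.07 and 0.07), 0.06 for Dnajb9 (0.14 and 0.06), -0.09 for Hsp90b1 (0.14 and 0.06) and 0.12 for Manf (0.21 and 0.06). They were -0.07 for Hyou1 and -0.01 for Calr, where control 1 spread the controls to SDs of 0.44 and 0.36. Relative to controls 2 and 3 alone, the differences were 0.01 for Dnajb11, -0.02 for Dnajb9, -0.17 for Hsp90b1, 0.01 for Manf, 0.19 for Hyou1 and 0.20 for Calr. Relative to control 1 alone they were -0.11, 0.23, 0.07, 0.35, -0.57 and -0.42 in the same order, so that the direction turned with the control used in all 6 but Manf. The ratio of Sdf2l1 to Dnajb11 was -1.44, -1.41 and -1.27 in the controls and -0.72, -0.54 and -0.73 after epinephrine, a difference of 0.71, and of 0.68 without control 1. Of these 10 ratios, the 4 without overlap had a p of 0.1 in an exact permutation test (two-sided), and none can go lower with 3 samples against 3. The share of all genes whose ratio to Hspa5 separates the groups was not counted. Hspa5 itself rose by 0.62 while the median of all tested genes was 0.00, so the ratio of an unchanged gene to Hspa5 would also be lower after epinephrine.

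**Figure D4:**
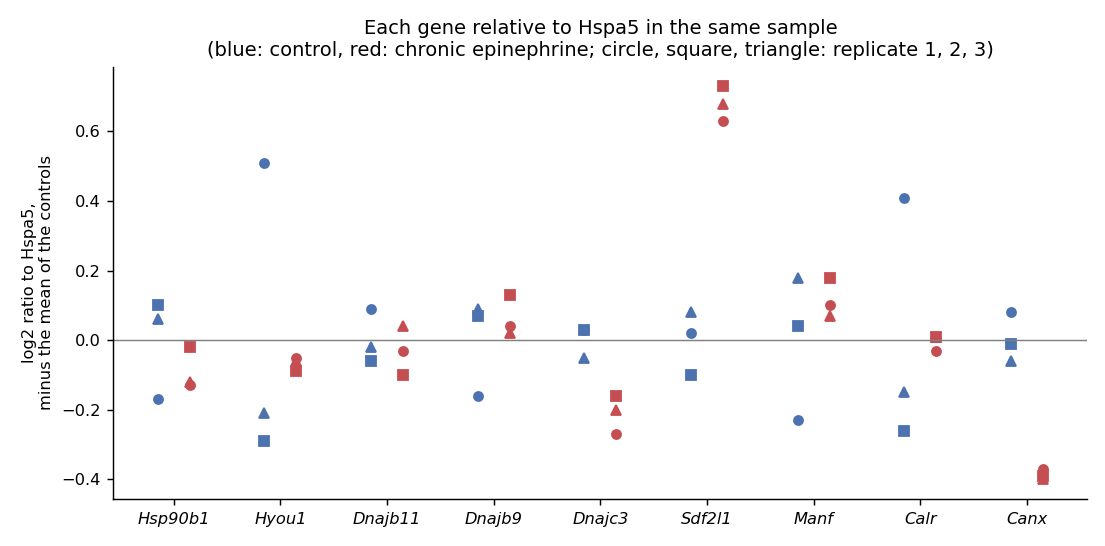
Log2 ratio of the CPM of 9 genes to Hspa5 in the same sample, set to 0 at the mean of the controls, for control (blue) and chronic epinephrine (red) samples with replicates 1, 2 and 3 as circle, square and triangle. The epinephrine samples lie above the controls for Sdf2l1 and below them for Dnajc3 and Canx, and the groups overlap for the other 6, with control 1 high in Hyou1 and Calr.

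Relative to the mean of controls 2 and 3 on the log2 CPM scale, control 1 was 0.66 higher in Hyou1 and 0.53 higher in Calr, and it was -0.43 in Manf and -0.33 in Hsp90b1 and Dnajb9. In Hspa5, Sdf2l1, Dnajb11, Dnajc3 and Canx it lay between -0.09 and 0.03. On the same scale the median of the 10 genes was -0.06 in control 1 and 0.57 to 0.63 in the epinephrine samples, and the median over all tested genes was between -0.01 and 0.00 in these samples. The groups with and without a shift in control 1 both contain genes with an ERSE.

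Over the 6 samples, the 45 pairs among the 10 genes correlated in log2 CPM with Pearson's r of 0.474 to 0.995 and a median of 0.928. Without control 1 the range was 0.920 to 0.998. The 5 or 6 points share the division into 2 groups, so these values mostly restate it. Among 12737 other tested genes, those with the profile most like the mean of the 10 were Gsdma, Fam129a, Mlec, Derl1, Ctsz, Lman1, Slc7a11 and Lonp1, with r of 0.997 to 0.998 over 6 samples, and 293 genes had an r over 0.95. Slc7a11 (1.48 ± 0.0938 to 8.01 ± 0.663 CPM), Gsdma (12.1 ± 1.1 to 57.4 ± 5.68 CPM) and Fam129a (9.37 ± 0.776 to 32.6 ± 1.76 CPM) had a larger fold than any of the 10. Derl1, of the machinery that returns misfolded proteins to the cytosol, and Lman1, a lectin that carries glycoproteins out of the ER, had log2 fold changes of 0.37 and 0.39 (edgeR FDR 0.0418 and 0.0359). Only Gsdma and Lman1 were again among the first 8 without control 1.

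The genes that work beside these chaperones were described as lists. Of 20 protein disulfide isomerases and ER oxidases, which form and shuffle disulfide bonds, 19 were tested, 8 were higher at an edgeR FDR under 0.05 (2.02% of all genes) and 0 lower (0.612%), with a median log2 fold change of 0.33 (0.38 without control 1). Ero1l, an oxidase that recharges disulfide isomerases, rose from 379 ± 12 to 633 ± 4.63 CPM (log2 fold change 0.74, SE 0.08, FDR 0.00289). Creld2 (0.87, FDR 0.00434) and Pdia6 (0.94, FDR 0.00946) rose also. Ero1lb, the relative of Ero1l in this list, was at a higher level and did not pass (3670 ± 99.4 and 3613 ± 25.5 CPM, log2 fold change -0.02, FDR 0.913). It was named after its values were seen. Without control 1, 13 of the 19 were higher (12.1% of all genes), and without any one of the other samples 1 to 5 were. No gene of this list was lower at an unadjusted p under 0.05 or by DESeq2.

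The list closest in function, 10 other BiP cofactors and ER J-domain proteins, held none that passed the edgeR test, although 6 were higher at an unadjusted p under 0.05 (9.19% of all genes tested) and the Wald test of DESeq2 called 2, Sil1 and Hspa13 (3.18% of all genes). Its median log2 fold change was 0.25, and 0.26 without control 1. The smallest p belonged to Hspa13, a small Hsp70 relative of the ER, at 150.5 ± 22.1 CPM in the controls and 210 ± 1.87 CPM after epinephrine (log2 fold change 0.48, SE 0.11, edgeR FDR 0.0731), and without control 1 it passed (0.37, FDR 6.30e-06). Without control 1, 7 of the 10 passed as higher (12.1% of all genes), among them Sil1, which exchanges nucleotide on BiP as Hyou1 does (0.34, FDR 0.000825). Sdf2, the relative of Sdf2l1, did not pass (61.1 ± 14 and 70.8 ± 2.57 CPM, log2 fold change 0.21, FDR 0.542), nor did Cdnf, the relative of Manf (0.873 ± 0.232 and 0.757 ± 0.179 CPM, FDR 0.805). Sil1, Sdf2 and Cdnf were named after their values were seen.

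In the glycoprotein folding cycle, which Calr and Canx serve, 2 of 15 genes were higher by edgeR (2.02% of all genes), Lman1 (406 ± 6.58 to 531 ± 8.36 CPM, FDR 0.0359) and Erlec1 (79.2 ± 4.07 to 104 ± 2.57 CPM, FDR 0.042), and the median was 0.33 (0.35 without control 1). Without control 1, 13 of the 15 passed (12.1% of all genes), and without any single one of the other samples none did. Of 14 prolyl isomerases and client chaperones of the ER, 11 were tested and 2 were higher, beside 2.02% of all genes. Fkbp11, a membrane-bound prolyl isomerase of secretory cells, rose from 8.2 ± 1.84 to 28 ± 0.936 CPM (log2 fold change 1.77, SE 0.15, FDR 0.00148), and Fkbp2 from 53.1 ± 7.46 to 84.8 ± 2.55 CPM (0.68, FDR 0.0182). The median of this list was 0.22. Without control 1 it was 0.18, 5 genes passed as higher (12.1% of all genes) and 1 as lower (9.46%), Fkbp9 (534 ± 37.2 and 434 ± 23.6 CPM, log2 fold change -0.30, FDR 0.139 over all samples and 0.000905 without control 1), which DESeq2 also called lower and which was named after its values were seen. Only Fkbp11 passed as higher without control 2 or with any one epinephrine sample left out.

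Among 10 sensors and transcription factors of the unfolded protein response, 2 were higher by edgeR (2.02% of all genes), Atf4 (189.5 ± 23.6 to 346 ± 5.51 CPM, FDR 0.00581) and Ddit3 (23.2 ± 5.49 to 52.8 ± 1.93 CPM, FDR 0.00853), with a median log2 fold change of 0.23 (0.31 without control 1). Without control 1, 9 passed (12.1% of all genes), without epinephrine 1 or 2 none did (0.341% and 0.357%), and without epinephrine 3 only 1 (0.555%). Of 18 relatives of these chaperones in the cytosol and mitochondria, 3 were higher (2.02% of all genes) and the median was 0.04 (0.03 without control 1). Hspa9, the mitochondrial Hsp70, was at 323 ± 5.85 and 460.3 ± 10.2 CPM (log2 fold change 0.51, FDR 0.0114). The stress-inducible Hspa1a (14.3 ± 1.78 to 36 ± 5.72 CPM, FDR 0.00384) and Hspa1b (15.6 ± 1.35 to 39 ± 1.51 CPM, FDR 0.000886) are near-identical copies, so their counts could be split between them in ways the sources do not state. Without control 1, 5 of the 18 were higher and 2 lower, Trap1 and Dnajb6, named after their values were seen, where 12.1% of all genes were higher and 9.46% lower. Each list gene given above as higher over all 6 samples also passed without control 1, with log2 fold changes from 0.35 (Erlec1) to 1.66 (Fkbp11), and that of Ddit3 was 1.01 there.

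**Figure D5:**
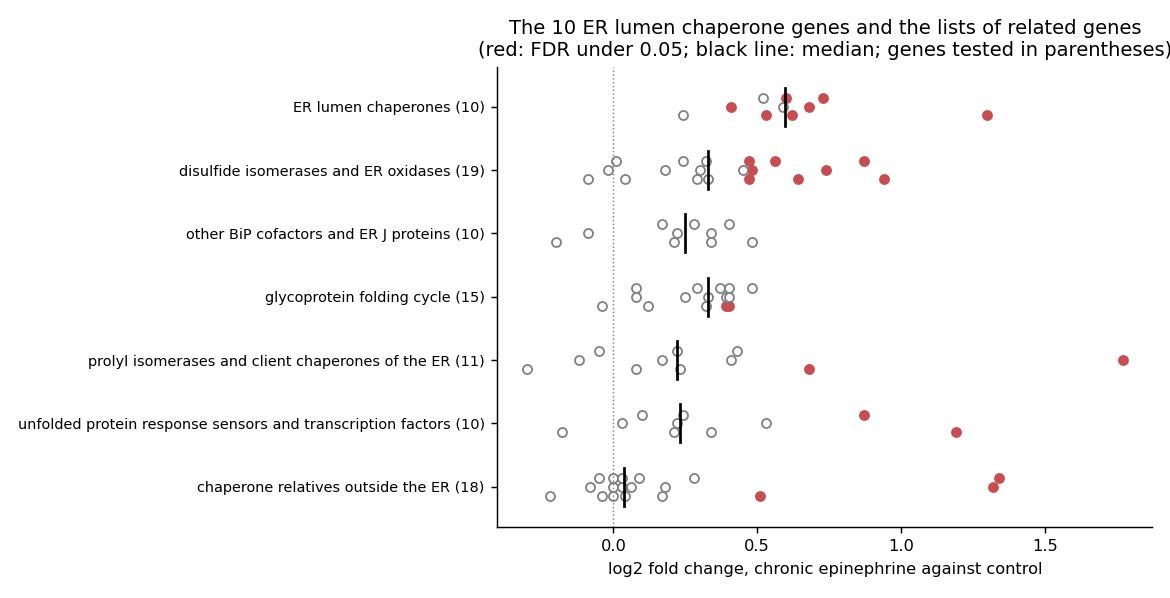
Log2 fold change of the 10 genes and of the tested genes of 6 related lists, each point a gene, red at an edgeR FDR under 0.05, with the median of each row as a black line. The 10 genes have a median of 0.59, the 5 lists of ER genes and of the unfolded protein response medians of 0.22 to 0.33, and the relatives outside the ER one of 0.04.

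Beyond the 5 that belong to the 10, 12 tested genes had an exact ERSE in a RefSeq window, and 3 of them were higher by edgeR (2.02% of all genes): Creld2, Pdia6 and Derl3 (5.75 ± 1.53 to 13.4 ± 1.63 CPM, log2 fold change 1.22, FDR 0.0139), named after their values were seen. The median log2 fold change of the 12 was 0.10 (0.20 without control 1). Over all 6 samples 11 of the 12 were above 0, as 6311 of all 12747 tested genes were. Without control 1, Pan2 (-0.23), Xlr3a (-0.06), Xlr3b (-0.14), Xlr3c (-0.19) and Hnrnpa3 (-0.06) were below 0. Of the 5 with an ERSE among the 10 genes, Hspa5, Hsp90b1 and Dnajc3 passed the test and Calr and Canx did not. Sdf2l1 and Dnajb9, whose windows hold neither form, passed, as did Dnajb11, which has the ERSE-II. Without control 1, all 8 passed, and so did 5 of the 12 other genes as higher (12.1% of all genes) and 1 as lower (9.46%).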

How the data were processed

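RNA of 3 control and 3 chronic epinephrine samples of MIN6 cells was sequenced by the authors, who deposited a table with the expected count of every gene in every sample, not normalised, and with FPKM, which divide by transcript length and sample total. The build, GRCm38, is that of the submitters' processing notes. The aligner, the counting tool and the annotation are not given in the sources used here. Of the deposited counts, 8.34% of values were not whole, and all were rounded. Groups were taken from the sample titles.

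With edgeR 4.0.16 (R 4.3.3), 12747 genes kept by filterByExpr were normalised by TMM and fitted by the quasi-likelihood method, chronic epinephrine minus control. The FDR is the Benjamini-Hochberg value over all these genes, with a threshold of 0.05. The standard error is the log2 fold change divided by the square root of F. CPM are TMM-normalised. The script was tested on simulated data. The deposited FPKM served to compare levels between genes. Positions and shared 50-base windows came from GENCODE mouse release 21 (22255 of 22298 identifiers matched), and promoter windows from RefSeq (GRCm38.p6). Alternatives were other scalings, filters and samples left out, the Wald test of DESeq2 1.42.0, limma 3.58.1 on log2 FPKM with 1 or 0.1 added, replicate number as a block, and an offset for the length and GC content of transcripts. The genes and lists were chosen with earlier results of these data known. Named were the 10 genes, up to 3 called genes per list with the smallest p (or the first one where none was called), the 8 genes of highest Pearson's r to their mean profile, and of each marker list the gene of highest mean, of which 1 is not reported here. A count of 0 allows up to 3 counts, which covers counting error only. The tables of annotation terms and descriptions in the deposited file were not used.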

Additional observations from a re-analysis of the deposited data

How the results depend on the processing

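Every one of the 10 genes kept a positive log2 fold change in all 17 alternatives, 170 values in all, of which 30 lost and 8 gained an FDR under 0.05. With samples left out in turn, the number of the 10 called higher was 1 to 10 and all tested genes called 47 to 2798 (335 as reported). The called genes of the lists were then 1 to 13 for disulfide isomerases (8 as reported), 0 to 7 for other BiP cofactors (reported 0), 0 to 13 for the glycoprotein cycle (reported 2), 1 to 5 for prolyl isomerases (reported 2), 0 to 9 for the unfolded protein response (reported 2) and 2 to 5 for relatives outside the ER (reported 3). All tested genes called were 734 with DESeq2, 178 with a replicate block, 1329 with the length and GC offset, and 6362 with control 1 as the only control. In that last setting, chosen after seeing the data, the lists in the same order had 13, 6, 9, 6, 5 and 12. The replicate block left 5 of the 10 genes, 5 disulfide isomerases and 0 of the glycoprotein cycle. Correlations of same-numbered deviations were 0.0502, 0.0677 and -0.0488, and those of the other pairs -0.117 to 0.109. These values show no sign of pairing by replicate number but cannot settle whether the samples were paired. The offset gave 3 other BiP cofactors, 9 of the glycoprotein cycle and 4 of the unfolded protein response, DESeq2 gave 2 and 7 of the first 2 of these, and upper quartile scaling, library size only, no filter and both limma fits 1 of the glycoprotein cycle. The median log2 fold change of the 10 was 0.57 with library size only and with limma on log2(FPKM + 1), 0.56 with the offset, 0.62 against control 1 alone and 0.57 to 0.63 with samples left out. The groups separated for 9 of the 10 with library size only, with the offset and in both limma fits. In every other setting where this was counted, they separated for all 10. The share of all genes that separated was counted only in TMM-normalised CPM over all 6 samples. Of the 8 genes most like the 10, 2 remained without control 1. With Spearman's rho, 2 of the 8, Mlec and Lonp1, were at 1, but 39 genes tied at that value, so no first 8 can be picked. The causes were not tested. The lowest of the 10 genes had 622 counts in a sample.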
